A study of Mus musculus with 1920 samples.

Results

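The 10 genes described here, Hspa5, Hsp90b1, Pdia4, Dnajb9, Xbp1, Atf4, Ddit3, Atf6, Ern1 and Ern2, belong to the unfolded protein response. They were picked by name from a table of 55471 gene identifiers, and each was found with reads. Their levels were read across cells with at least 1000 detected genes, by the lineage markers each cell carried, and across young and aged mice. In the study, single intestinal stem cells (ISCs) were sorted for high GFP from mice that carry a GFP and CreERT2 cassette in the Lgr5 locus (labelled B6.129P2-Lgr5tm1(cre/ERT2)Cle/J), so the reporter allele is shared by both ages. There were 3 young and 4 aged mice, labelled as such with no age in weeks given for the sequenced animals and no treatment, and the full-length cDNA of 1920 cells was sequenced. After the filter 1836 cells remained, with 160 to 376 cells a mouse, 49447464 to 134408884 reads a mouse and a median of 305492 reads and 9398.5 detected genes a cell. Because the knock-in is known to be expressed in patches of crypts, the cells stand for reporter-positive crypts.

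Secretory and membrane proteins fold in the endoplasmic reticulum (ER), and the unfolded protein response adjusts the folding capacity of that compartment to its load. The sensors IRE1 (Ern1 and its epithelial paralog Ern2), ATF6 and PERK sit in the ER membrane and signal through the transcription factors XBP1, the cleaved part of ATF6, ATF4 and, downstream of ATF4, CHOP (Ddit3). Their targets are chaperones and folding enzymes such as BiP (Hspa5), GRP94 (Hsp90b1), Pdia4 and Dnajb9, and in the gut the response is best known from Paneth and goblet cells, which secrete large amounts of protein.

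Although the gate selected Lgr5high cells, not all cells were led by ISC markers. A cell was called led by the list, out of 8 lists of cell type markers without any of the 10 genes, that had the highest mean log2(CPM + 1), where CPM is the reads of a gene scaled to a common total of reads on genes. By this rule 1595 cells (86.9%) were ISC-led, 120 were Paneth-led, 85 enterocyte-led, 17 tuft-led, 15 goblet-led, 3 stromal-led and 1 enteroendocrine-led. The defining markers followed these names. Lyz1, a lysozyme of Paneth cells, reached 60266 CPM over the Paneth-led cells and 260 CPM over the ISC-led cells, whereas Lgr5 had 386 CPM in ISC-led and 120 CPM in Paneth-led cells. Muc2, the goblet cell mucin, had 19329 CPM in goblet-led cells but was also detected in 97.5% of the Paneth-led cells, Dclk1 had 1460 CPM in tuft-led cells and Alpi 1466 CPM in enterocyte-led cells. Such a class is a range on a score rather than a sharp type: 51 cells lay within 0.5 (log2) of a second list, 10 of them Paneth-led, and the Paneth-led cells had a median ISC-list level of 6.12 and a median goblet-list level of 4.63 beside 10.7 for their own list (log2 scale). No doublet caller was run, and whether some wells held 2 cells was not tested. The median Paneth-led cell had 232480 reads, the median ISC-led cell 318812.

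Per length of the annotated exons, Hspa5 was the most abundant of the 10 genes and Ern1 the least. Over all kept cells, Hspa5 had 129 ± 28.5 CPM per kb (SD, n = 7 mice), Hsp90b1 91.5 ± 14.1, Pdia4 65.8 ± 10.4 and Xbp1 60.0 ± 7.43. Pdia4 and Xbp1, neighbours in this order, lay within 1 SD of each other. Atf4 stood at 27.1 ± 7.62 CPM per kb, followed by Dnajb9 at 8.68 ± 1.26, Ddit3 at 7.49 ± 2.18, Ern2 at 7.08 ± 3.80, Atf6 at 4.25 ± 0.865 and Ern1 at 1.65 ± 0.359. Dnajb9, Ddit3 and Ern2 could not be ordered against each other within their spread, and Ern2 and Atf6 also lay within the SD of Ern2. By age, Ern2 stood at 4.11 ± 1.09 CPM per kb in young (SD, n = 3) and 9.31 ± 3.55 in aged mice (SD, n = 4). The age difference did not pass the test given below. Atf6 had 4.10 ± 1.19 and 4.37 ± 0.714 CPM per kb in these groups. A gene count does not separate the spliced from the unspliced Xbp1 message, so the output of IRE1 was not measured.

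Among the members, the chaperones Hspa5 and Hsp90b1 carry the ER stress response element, the site through which ATF6 and XBP1 are known to act, just upstream of their start sites. The element was searched as CCAAT and CCACG with 9 bases of any kind between them, on both strands in the 250 bases before each start in the RefSeq annotation (GRCm38.p6). It was found in 37 of 32851 promoter windows (0.113%), and in 2 of the 8 member windows read. Those of Atf6 and Ern2 were not used here. The windows for these genes are shown 5′ to 3′ on the gene's strand because they are the member windows with a match, which stands in capitals. Hspa5 lies on the plus strand (window chr2:34771840-34772089) and Hsp90b1 on the minus strand (window chr10:86705445-86705694).
Hspa5: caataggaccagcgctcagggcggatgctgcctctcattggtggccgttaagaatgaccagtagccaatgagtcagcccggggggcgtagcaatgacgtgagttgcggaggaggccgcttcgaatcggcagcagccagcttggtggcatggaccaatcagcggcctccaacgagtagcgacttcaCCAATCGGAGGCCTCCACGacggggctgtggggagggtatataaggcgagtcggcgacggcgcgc
Hsp90b1: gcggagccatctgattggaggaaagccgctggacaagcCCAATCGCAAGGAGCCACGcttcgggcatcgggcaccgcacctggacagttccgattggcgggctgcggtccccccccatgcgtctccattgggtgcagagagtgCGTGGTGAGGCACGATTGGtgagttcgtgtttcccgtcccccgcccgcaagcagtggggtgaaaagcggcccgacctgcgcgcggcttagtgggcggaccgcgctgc
The match in Hspa5 ended 47 bases before the start site. Hsp90b1 had 1 match on the gene's strand, 194 bases before the start, and 1 on the opposite strand, 89 bases before it. The letters of 3 related sites, ATTGG and CCACG with 1 base between them (0.0304% of all windows), TGACGTGG (0.563%) and the ATF4 composite site TGATGNAAN (3.44%), occurred in 0 of the 8 member windows. A match is a description of the letters, and binding was not measured.

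The first question was whether the response genes differ between secretory and stem cells of the same sort. Ern2 and Ern1, the paralogous IRE1 sensors, were higher in Paneth-led than in ISC-led cells of every mouse, Ern2 by 14.4-fold and Ern1 by 4.88-fold in the fit. With TMM scaling, which sets the bulk of genes equal, 9 of the 10 members passed the test as higher and none as lower, against 9.55% of the 14265 genes tested as higher and 7.22% as lower. With reads set against library totals, the IRE1 sensors were the members that still passed as higher.

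Ern2 (chr7:122169893-122186207, minus strand) is the IRE1 paralog known from mucus-secreting epithelium. In Paneth-led cells its level was 49.4, 60.0 and 122 CPM in young mice 1 to 3 and 77.1, 102, 77.1 and 177 CPM in aged mice 1 to 4. In ISC-led cells of the same mice it was 8.48, 6.84 and 11.3 CPM and 13.8, 12.9, 28.7 and 26.9 CPM. The lowest Paneth-led value lay above the highest ISC-led value, in both age groups. The log2 fold change was 3.85 (SE 0.332, edgeR's quasi-likelihood test with mouse as block, Benjamini-Hochberg adjusted p = 1.37e-07), and 2.62 with library totals.

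Ern1 (chr11:106394650-106487852, minus strand), the IRE1 gene used by most cell types, had 12.7, 17.2 and 37.7 CPM in Paneth-led cells of the young mice and 19.9, 37.1, 21.8 and 47.2 CPM in those of the aged mice. In ISC-led cells it had 9.5, 11.2 and 16.1 CPM and 10.6, 12.1, 11.2 and 16.1 CPM. Each mouse had more in its Paneth-led cells, but the ranges of the classes overlapped across mice on this scale. On the TMM scale they did not, at 20.7 to 62.4 CPM in Paneth-led and 6.26 to 11.5 CPM in ISC-led sums. The log2 fold change was 2.29 (SE 0.357, edgeR adjusted p = 0.000196) and 1.10 with library totals. Ern1 and Ern2 passed the test in all 17 settings that were tried.

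**Figure D1:**
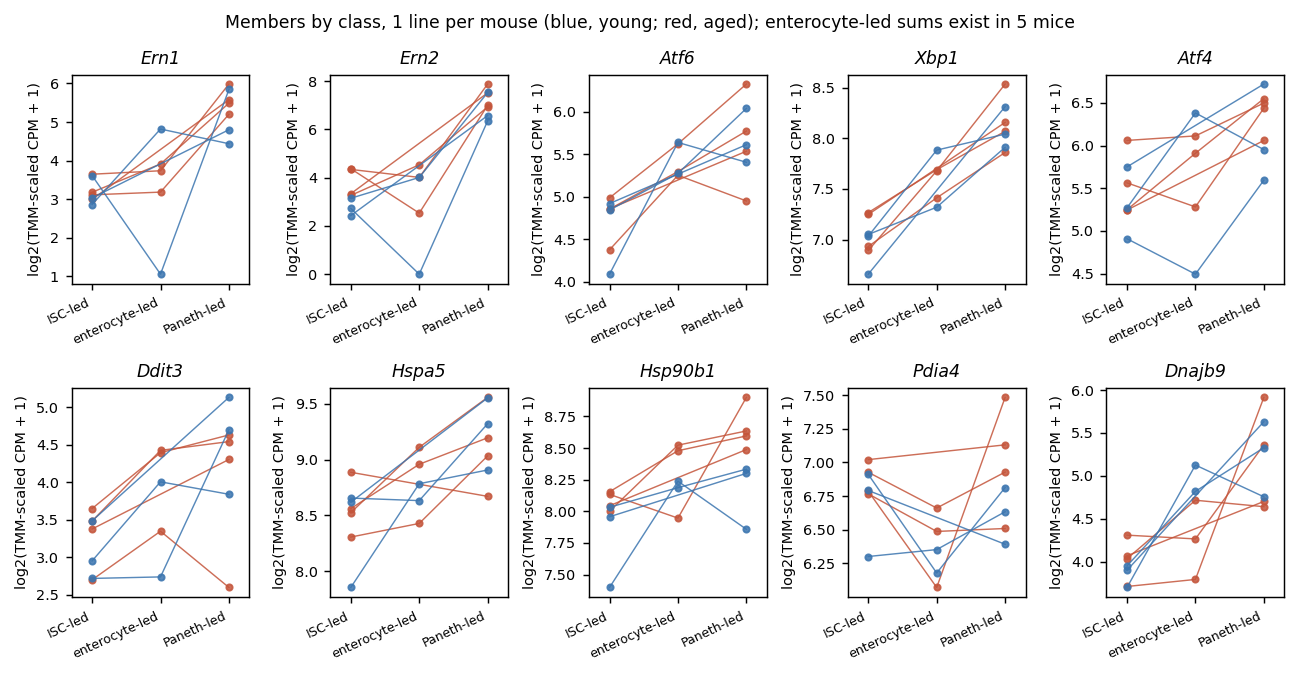
Levels of the 10 members in ISC-led, enterocyte-led and Paneth-led cells as log2(TMM-scaled CPM + 1) of summed reads, with 1 line per mouse (7 mice; enterocyte-led sums exist in 5) and a separate y axis for each gene. Ern2 and Ern1 are higher in Paneth-led than in ISC-led cells along every line, while the Pdia4 lines rise in 4 mice and fall in 3.

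The third sensor, Atf6, and the transcription factors showed smaller differences, whose calls depended on the scaling. Xbp1, the factor that IRE1 activates by splicing, had a median of 175 CPM (121 to 280) in Paneth-led and 186 CPM (156 to 229) in ISC-led cells of the 7 mice, and was higher in Paneth-led cells in 3 mice by CPM. On the TMM scale the medians were 268 (231 to 370) and 130 (100 to 153), and the ranges did not overlap. Its log2 fold change was 1.12 (SE 0.142, edgeR adjusted p = 1.72e-05) with TMM scaling and −0.076 with library totals. Atf6 had 1.00 (SE 0.172, edgeR adjusted p = 0.000537) against −0.18, Atf4 0.84 (SE 0.181, adjusted p = 0.00374) against −0.36, and Ddit3 1.21 (SE 0.266, adjusted p = 0.00447) against 0.01.

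The ER chaperones divided in the same comparison. Dnajb9, an ER DnaJ cofactor of BiP, was higher in Paneth-led cells in 5 mice by CPM and in 7 on the TMM scale, with a log2 fold change of 1.35 (SE 0.255, edgeR adjusted p = 0.00124). Hspa5, the main ER Hsp70, had a median of 395 CPM (173 to 494) in Paneth-led and 566 CPM (330 to 715) in ISC-led cells and was lower in the Paneth-led cells of each mouse by CPM, but higher in 6 mice on the TMM scale (log2 fold change 0.69, SE 0.163, edgeR adjusted p = 0.00715). Hsp90b1, the ER Hsp90, was likewise lower by CPM in 7 mice and higher on the TMM scale in 7, at 0.49 (SE 0.147, adjusted p = 0.0275), and it lost its call without young mouse 1 or aged mouse 2, 3 or 4 (adjusted p = 0.0550 to 0.0754 in edgeR), with 10 cells a sum and with no filter on low counts. Pdia4, a protein disulfide isomerase, was the member that did not pass, at 0.07 (SE 0.159, adjusted p = 0.806). With library totals Hsp90b1 (−0.71) and Pdia4 (−1.13) passed as lower.

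Library makeup moved with the class. Defensin reads made up 23.6 to 56.4% of the reads in Paneth-led sums, with a median of 30.9%, and 0.0639 to 0.0752% in ISC-led sums. The median log2 fold change of all genes tested was −0.11 with TMM scaling, −1.29 with library totals and −0.39 with totals that leave out marker and defensin genes. Relative to the median of all genes, Ern2 stood at 3.95, 3.91 and 3.96 under the 3 scalings, Xbp1 at 1.23, 1.21 and 1.23, Hspa5 at 0.80, 0.78 and 0.79, and Pdia4 at 0.17, 0.16 and 0.18. A change of scaling moves all genes by a nearly equal amount, so the likeness of these values across scalings is not a test of them. With library totals 402 genes (2.82%) passed as higher and 10962 (76.8%) as lower in place of 1362 and 1030, and with the marker and defensin genes left out of the totals 903 (6.33%) and 3253 (22.8%). Under the last scaling 7 members passed as higher, namely Atf4, Atf6, Ddit3, Dnajb9, Ern1, Ern2 and Xbp1.

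**Figure D2:**
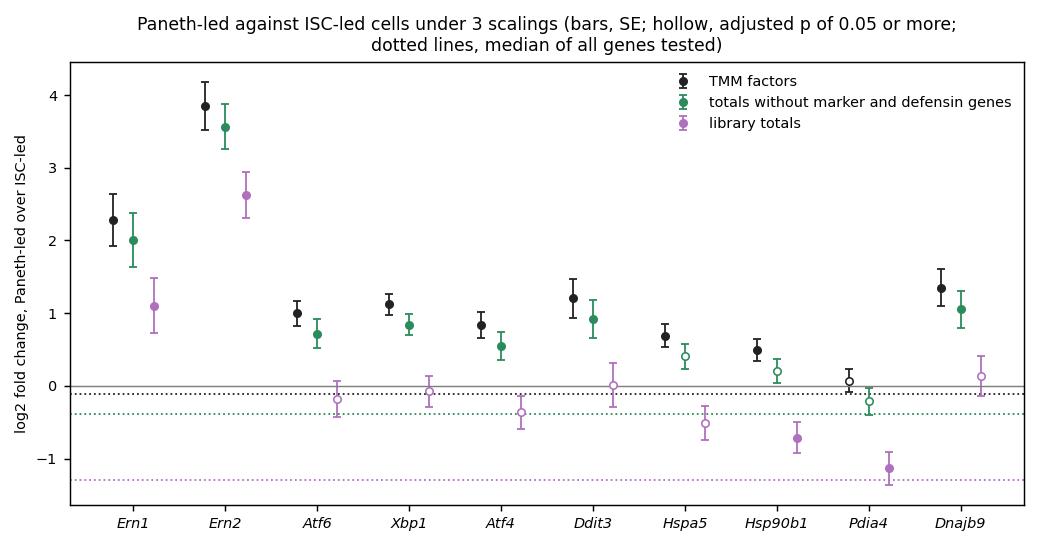
Log2 fold change of Paneth-led against ISC-led cells for the 10 members under 3 scalings, with bars of 1 standard error and the median of all 14265 genes under each scaling. Each member shifts with the median of all genes, and Ern2 and Ern1 pass the test as higher under all 3 scalings. Dnajb9 and Ddit3 also stay above 0 but do not pass with library totals.

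Other genes of the response were read from 5 lists. The first, called the sensor list below, held 12 genes: other sensors, ATF6 proteases, ATF6-like factors and eIF2alpha kinases. Of these, 4 passed as higher in Paneth-led than in ISC-led cells and 0 as lower (median log2 fold change 0.49). The highest values were those of Creb3l1 (2.67), Creb3l4 (2.58) and Creb3l2 (1.93), ER-anchored factors related to ATF6. Eif2ak3, which encodes PERK, was also among the 4 that passed, at 1.84 (SE 0.288, edgeR adjusted p = 0.000198). Of 22 chaperones and folding enzymes 15 passed as higher and 0 as lower (median 0.85), led by Ero1lb (3.35), the ER oxidase of secretory cells, P4hb (2.07) and Dnajc3 (2.05). Among 18 genes of ER-associated degradation the counts were 14 and 0 (median 1.05), with Derl3 (3.21), Edem1 (2.18) and Edem2 (1.96) at the top, and among 20 genes of translocation and signal peptide processing 15 and 0 (median 0.82), with Tram1 (1.99), Srpr (1.52) and Ssr3 (1.43). The ATF4 and CHOP targets were mixed, as 7 of 20 tested passed as higher, among them Nupr1 (5.92), Trib3 (2.47) and Atf3 (1.89), and 2 as lower (median 0.45). The median over all genes was −0.11, and 9.55% of all genes passed as higher and 7.22% as lower. All these directions are on the TMM scale. With library totals the higher and lower counts were 3 and 6, 4 and 10, 3 and 5, 1 and 8, and 2 and 11 in the order of the lists, beside a median of −1.29 over all genes. Under that scaling 2.82% of all genes passed as higher and 76.8% as lower. With totals without marker and defensin genes the list counts were 4 and 3, 12 and 0, 13 and 0, 11 and 0, and 5 and 4, beside 6.33% and 22.8% of all genes.

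Shares of cells with a read gave the same comparison per cell, on a scale that, like library totals, keeps the defensin reads. After each cell was thinned to 100000 reads, which 1732 cells allowed, Ern2 was detected in 14.0% of ISC-led, 37.1% of enterocyte-led, 29.4% of tuft-led, 93.0% of Paneth-led and 100% of goblet-led cells. Without thinning the shares were 17.4, 42.4, 35.3, 90.0 and 86.7%. The secretory classes led for Ern1 as well, with 78.0% of Paneth-led and 83.3% of goblet-led cells against 43.7% of ISC-led cells after thinning. Hspa5, Hsp90b1, Pdia4 and Xbp1 were near saturation, at 93.0% or more of the thinned cells in each of the 5 classes. For these genes detection could not separate the classes. The thinned cells numbered 1532, 70, 17, 100 and 12 in these classes, and cells of 1 mouse are not independent replicates.

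**Figure D3:**
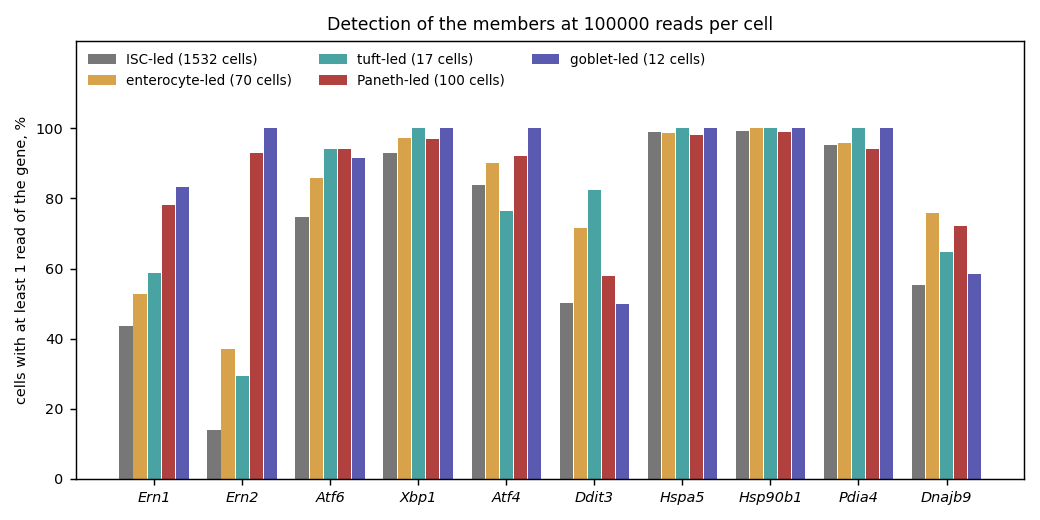
Percent of cells with at least 1 read of each member after thinning to 100000 reads, by the class of the cell. Ern2 runs from 14.0% of ISC-led to 93.0% of Paneth-led and 100% of goblet-led cells, whereas Hspa5 is detected in at least 98.0% of cells in each class.

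Enterocyte-led cells, named for an absorptive cell type, served as a further comparison. They could be summed in 5 mice. Their sums also held secretory reads, with Lyz1 at 2071 CPM beside 260 CPM in ISC-led cells, Defa24 at 9888 beside 437 CPM and Muc2 at 678 beside 92.4 CPM. Muc2 was detected in 64.7% of enterocyte-led and 27.0% of ISC-led cells, and defensins made up 0.0246 to 4.67% of the enterocyte-led reads of a mouse, highest in aged mouse 2. The part of these reads in the comparisons with this class was not tested. Atf6 (log2 fold change 0.75, edgeR adjusted p = 0.00795), Ddit3 (0.89, adjusted p = 0.0333) and Xbp1 (0.59, adjusted p = 0.00883) passed as higher than in ISC-led cells, against 16.9% of all genes as higher and 12.7% as lower. Atf6 lost its call without young mouse 1 (adjusted p = 0.0504 in edgeR), and Ddit3 without young mouse 2 or 3 or aged mouse 2 or 4 (0.0552 to 0.125). With at least 10 cells a sum, or with no filter on low counts, 0 members passed as higher. Ern2 (0.05, SE 0.393) and Ern1 (0.38, SE 0.431) did not pass. With cells thinned to 100000 reads, where 4 mice had enterocyte-led sums, Ern2 passed as higher at 0.72 (adjusted p = 0.0437 in edgeR). Ern2 had a median of 13.1 CPM (0 to 22.4) in enterocyte-led sums. This median lay within the range of the ISC-led sums (6.84 to 28.7 CPM), but the lowest young and aged sums, 0 and 5.81 CPM, lay below it. The 0 in the 5 cells of young mouse 1 allows a level of up to 4.22 CPM (3 reads, counting error only). With library totals and with the totals that leave out marker and defensin genes, 0 members passed as higher, and Pdia4 passed as lower at −0.94 and −0.86. The median of all genes was −0.11 with TMM scaling, −0.64 with library totals and −0.56 with the reduced totals. The genes called numbered 2407 higher and 1805 lower with TMM scaling, 1223 (8.57%) and 4654 (32.6%) with library totals, and 1465 (10.3%) and 4727 (33.1%) with the reduced totals.

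The other response genes were also compared between enterocyte-led and ISC-led cells, where 16.9% of all genes passed as higher and 12.7% as lower. The 5 lists held 12, 22, 18, 20 and 20 tested genes, in the order used above. Creb3l3, known from liver and absorptive gut cells, had a log2 fold change of 5.15 over ISC-led cells and Creb3l2 2.08. Of the 12 genes of the sensor list, 3 passed as higher and 1 as lower. P4hb (2.22) passed as higher and Pdia5 (−1.44) as lower among the folding enzymes (7 higher, 3 lower), Edem1 (1.07) was the highest of 6 genes of degradation and Srp54a (0.93) of 6 genes of translocation that passed. The ATF4 and CHOP targets counted 4 higher, with Trib3 at 3.52, and 6 lower, with the amino acid transporter gene Slc7a5 at −2.34. Eif2ak3 was at −0.06 (edgeR adjusted p = 0.913). With library totals the counts for the 5 lists were 2 and 5, 1 and 3, 0 and 0, 0 and 6, and 2 and 12. Of all genes, 8.57% passed as higher and 32.6% as lower under that scaling.

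Set directly against the enterocyte-led cells, the Paneth-led cells had more Ern2 (log2 fold change 3.80, SE 0.420, edgeR adjusted p = 1.92e-06), more Ern1 (1.90, SE 0.450, adjusted p = 0.00347) and more Xbp1 (0.53, SE 0.163, adjusted p = 0.0206). Xbp1 lost its call without aged mouse 4 (adjusted p = 0.0813 in edgeR) or young mouse 1 (0.0620), with 10 cells a sum, with thinned cells and with no filter. Of all genes 11.7% passed as higher and 16.8% as lower. The other 7 members did not pass and ranged from 0.16 (Hsp90b1) to 0.67 (Dnajb9). With library totals Xbp1 was at −0.15 and the IRE1 sensors were the members that passed, while the genes called moved from 1664 higher and 2396 lower to 524 (3.67%) and 5095 (35.7%), and to 2243 (15.7%) and 1889 (13.2%) with the reduced totals. Taking up to 2 genes a list by size, the other response genes included Derl3 (5.16), Nupr1 (4.72), Creb3l3 (−4.10), Creb3l4 (3.04), Slc7a5 (3.03) and Pdia5 (2.73), and Eif2ak3 had 1.91. By list, 4 and 2, 12 and 0, 9 and 0, 12 and 0, and 10 and 2 genes passed as higher and lower with TMM scaling. With library totals these counts were 4 and 4, 4 and 5, 2 and 3, 4 and 4, and 7 and 4.

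The 15 goblet-led cells came from 6 mice, with 1 to 5 cells a mouse, and were compared in a fit that was added after the data had been seen. Ern2 was again the member that stood out. It had 97.2 CPM in young mouse 1, 0 in the single cell of young mouse 2 (3 reads there would be 77.3 CPM), 215 in young mouse 3, and 75.7, 175 and 517 CPM in aged mice 2, 3 and 4. Apart from that single cell, each value lay above the ISC-led level of its mouse. The log2 fold change to ISC-led cells was 3.46 (SE 0.619, edgeR adjusted p = 8.63e-06), where 1.05% of 17677 genes passed as higher and 1.79% as lower. The BiP gene Hspa5 had 1.19 (adjusted p = 0.224) and passed at 1.34 (adjusted p = 0.00432) when a sum needed 2 cells, Ern1 had 1.61 (adjusted p = 0.136) and Xbp1 1.07 (adjusted p = 0.298). The median of all genes was −0.60 in this fit and −0.82 with library totals, and the counts of genes called were 186 higher and 316 lower, and 176 (0.996%) and 681 (3.85%). Of the other lists, Creb3l1 (3.61) and Creb3l4 (2.66) passed as higher, as did Txndc5 (2.37), Dnajc10 and Pdia5 (1.97). Thus 2 of the 12 genes of the sensor list and 3 of 22 folding genes passed as higher. The counts were 0 of 18 degradation genes (median 0.24), 0 of 20 translocation genes (median 0.48) and 0 of 21 ATF4 and CHOP targets (median −0.34). In the 5 lists 0 genes passed as lower. Tuft-led and enteroendocrine-led cells were too few for a test.

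The second question was whether the response genes differ between young and aged mice. No member passed the test in all kept cells or in ISC-led cells. Ern2 came closest, at 2.36-fold higher in aged mice, with every aged mouse above every young mouse. In sums over all kept cells a change in the share of a cell type cannot be told apart from a change per cell, so the ISC-led cells are given beside them.

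In all kept cells Ern2 had 12.9, 8.67 and 15.0 CPM in young mice 1 to 3 and 15.4, 22.7, 33.3 and 38.9 CPM in aged mice 1 to 4. In ISC-led cells it had 8.48, 6.84 and 11.3 CPM and 13.8, 12.9, 28.7 and 26.9 CPM. The groups did not overlap in either set, which held for 2.51% and 2.67% of all genes tested in this direction, and aged mice 1 and 2 lay close to the young ones among ISC-led cells. The log2 fold change was 1.24 (SE 0.353, unadjusted p = 0.00612, adjusted p = 0.675 in edgeR's quasi-likelihood test) and 1.27 in ISC-led cells (SE 0.368, adjusted p = 0.681). Within the 3 lanes that held cells of both ages the difference in all kept cells was 1.19, 1.30 and 1.02 (log2), and in ISC-led cells 1.16, 1.65 and 0.65, where young mouse 2 stood in 2 of the lanes.

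Goblet markers moved with Ern2. Their summed level in ISC-led cells was 244 to 286 CPM in young and 319 to 639 CPM in aged mice. The share of thinned ISC-led cells with an Ern2 read was 10.0, 8.98 and 10.5% in the young and 16.7, 12.0, 21.2 and 22.0% in the aged mice. A single cell gave 18.8 to 31.2% of the Ern2 reads of a young mouse and 15.9 to 45.1% of those of an aged mouse in this class. The part of these cells in the age difference was not tested.

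The young and aged mice overlapped for the other 9 members. Hspa5 had 611, 608 and 335 CPM in young and 697, 557, 558 and 439 CPM in aged mice, so that young mouse 3 was low and the groups overlapped. Hsp90b1 was low in the same mouse, with 388, 380 and 243 CPM in the young and 392, 417, 382 and 382 CPM in the aged mice. Pdia4 followed them at 170, 167 and 111 CPM against 190, 149, 169 and 148 CPM. Thus the 3 most abundant members were low in the same mouse, and without it the difference in Hspa5 was −0.055 in place of 0.17 (log2). The 384 sorted cells of young mouse 3 filled a lane of their own, so this mouse and its lane cannot be told apart.

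The remaining sensors and factors overlapped as well. Xbp1 had 197, 159 and 190 CPM in young and 227, 183, 224 and 184 CPM in aged mice, and Ern1 10.1, 11.4 and 16.5 CPM and 11.0, 14.7, 12.7 and 17.8 CPM. Atf6 was lowest in young mouse 1 (25.2 CPM) and aged mouse 3 (30.6 CPM), which shared a lane, and lay between 42.0 and 45.1 CPM in the other 5 mice. Atf4, the factor whose translation rises when eIF2alpha is phosphorylated, was highest in young mouse 2 (81.6 CPM) and aged mouse 2 (95.0 CPM), and between 43.5 and 62.5 CPM elsewhere. Part of the cells of young mouse 2 shared a lane with aged mouse 2, and its other cells shared one with aged mouse 1. Ddit3 ranged from 8.14 CPM (aged mouse 3) to 17.7 CPM (aged mouse 2) and Dnajb9 from 18.6 to 28.1 CPM, again in aged mice 3 and 2.

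**Figure D4:**
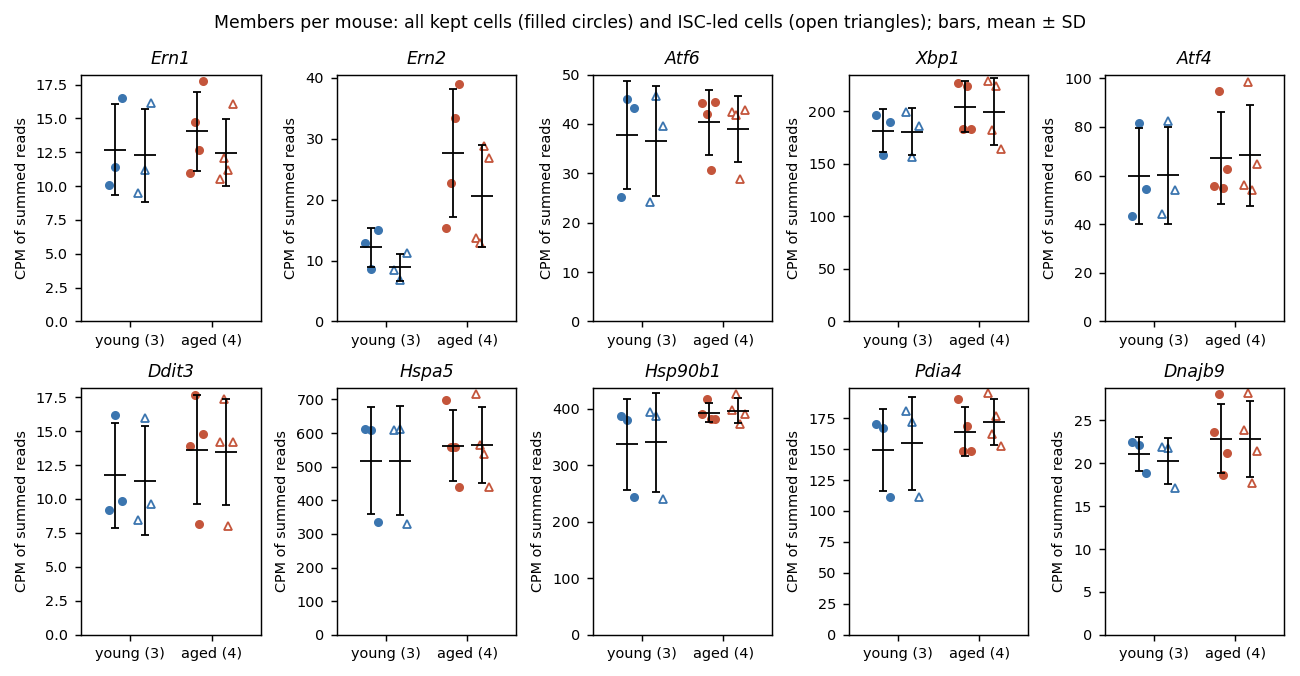
CPM of each member in all kept cells (filled circles) and in ISC-led cells (open triangles), with 1 point per mouse in each set. Group means are drawn as lines with bars of 1 SD (3 young, 4 aged mice). Every aged mouse lies above every young mouse for Ern2, and the groups overlap for the other 9 members.

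The fit placed all 10 members higher in aged mice. Their median was 0.21 (log2), beside 0.01 over the 20957 genes tested. With mice left out in turn, Hspa5 fell as low as −0.055 and Atf6 as low as −0.056, and the other members stayed above 0. In edgeR 0 genes passed (0.00% in either direction), although 1098 had an unadjusted p under 0.05, 1 member among them. In ISC-led cells 0 of 20387 genes passed and 997 were under that limit. DESeq2 called 128 genes higher and 77 lower (0.362% and 0.218%), and 109 and 77 in ISC-led cells (0.319% and 0.226%), with 0 members in either. Of the other lists, 21 of 22 folding genes and 19 of 20 translocation genes were fitted higher in aged mice, at medians of 0.23 and 0.15, beside 51.7% of all genes. The degradation list stood at 14 higher and 4 lower (median 0.16), the ATF4 and CHOP targets at 15 and 8 (median 0.06) and the sensor list at 5 and 7 (median −0.06). Without young mouse 3, the mouse low for Hspa5, 19 folding genes, 17 translocation genes and 13 degradation genes were fitted higher. So were 10 ATF4 and CHOP targets (median −0.026) and 7 genes of the sensor list (median 0.053), beside 52.7% of all genes. None of these genes passed in the fit with all mice. The lowest unadjusted p values by list were those of Sdf2l1 (log2 fold change 0.79, edgeR adjusted p = 0.694), Creb3l1 (0.83, adjusted p = 0.818), Psat1 (0.61, adjusted p = 0.835), Ssr4 (0.33, adjusted p = 0.915) and Aup1 (0.22), and Eif2ak3 had −0.16.

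The difference between Paneth-led and ISC-led cells was also compared between the ages. In the interaction test 0 of 18965 genes passed in edgeR (0.00% in either direction), with 673 under an unadjusted p of 0.05 and 0 members among them. DESeq2 called 2 genes higher and 2 lower (0.00581% each) and edgeR with library totals 2 and 1 (0.0105% and 0.00527%), with 0 members. Ern2 had the lowest p of the members, with an estimate of −0.71 (log2, SE 0.365, unadjusted p = 0.0683 in edgeR), the sign that stands for a smaller class difference in aged mice. The estimate was −0.40 without aged mouse 3, −0.93 without aged mouse 1 and −0.23 with a class margin of at least 0.5. Its Paneth-led level was 77.3 ± 39.5 CPM (SD, n = 3) in young and 108 ± 47.2 CPM (SD, n = 4) in aged mice, and the groups overlapped. Ddit3 had −0.87 (SE 0.511, unadjusted p = 0.105).

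Within ISC-led cells the members correlated with each other to differing degrees. Spearman's rho was computed within each mouse on thinned counts of 1532 cells and averaged over the 7 mice. It is given as a description, since the cells of a mouse share an animal and the genes of a cell its depth. Ern2, Ern1, Ddit3 and Dnajb9 had a read in 14.0, 43.7, 50.2 and 55.4% of these cells. Low values with these 4 genes therefore cannot show whether they vary with the others. The chaperones formed the closest group, at 0.41 for Hspa5 with Hsp90b1, 0.32 for Hsp90b1 with Pdia4 and 0.30 for Hspa5 with Pdia4, and Xbp1 joined them at 0.29 with Hspa5. These genes also followed the cell cycle lists. Hsp90b1 had 0.53 with the mean level of 12 genes of G2 and mitosis (list levels were not thinned), a value that was positive in 7 of 7 mice (0.35 to 0.63), and Hspa5 had 0.26 with this list and 0.27 with the S phase list. Part of the Hsp90b1 exons (10.3% of bases) overlaps an opposite-strand gene. Atf4 and Ddit3 instead tracked a list of dissociation and heat stress genes, at 0.33 and 0.21. Ern2 had its highest value with the goblet markers (0.20).

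**Figure D5:**
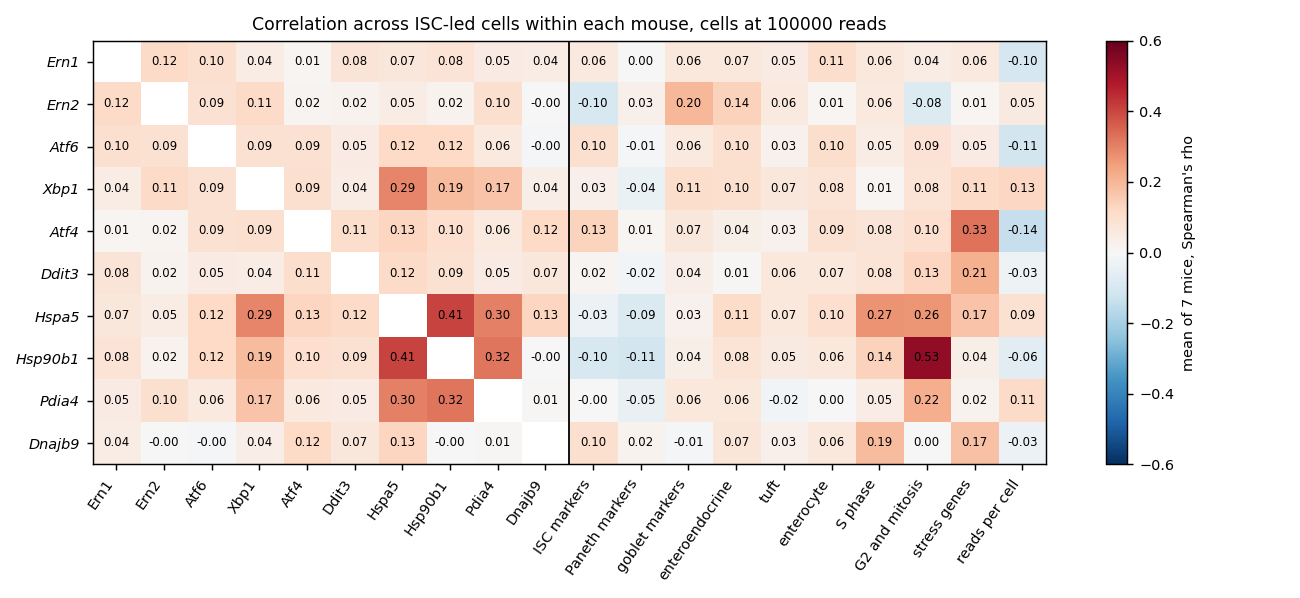
Mean Spearman's rho over 7 mice between members, and between members and marker, cell cycle and stress lists, in 1532 ISC-led cells thinned to 100000 reads. The highest value is Hsp90b1 with the list for G2 and mitosis (0.53), and Atf4 is highest with the stress list (0.33).

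Among 13377 genes detected in at least 10% of cells of every mouse, the genes most like each member were ranked by Pearson's r of log2(CPM + 1) over all kept cells, averaged over the 7 mice and again given as a description. Among the nearest to Hspa5 were the ER lectin gene Calr (0.55), the translocon gene Sec61a1 (0.46), Nsun2 (0.45) and the disulfide isomerase gene Pdia3 (0.44). Nearest to Ern2 were Tff3 (0.64), Muc2 (0.59), Hepacam2 (0.59), Selenom (0.56) and Galnt5 (0.55), the first 2 of which belong to the goblet list. Atf4 had lower values, led by Chp1 (0.34), Hnf4a (0.34), Rhoa (0.33), Ddb1 (0.33) and the amino acid transporter gene Slc38a2 (0.33). For Ddit3 the first was Mars (0.38), whose 3′ end overlaps that of Ddit3 on the other strand. Because the strand setting of the counting is not given in the sources used here, reads of this pair may not be told apart. The next were Dlst, Azin1 and Dusp1, each at 0.22, and Stx7 (0.21).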

How the data were processed

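Single Lgr5 GFP-high cells of 3 young and 4 aged mice were sequenced in 5 lanes of 384 cells. The authors aligned reads to GRCm38 with HISAT2 and deposited raw counts per gene and cell, with HTSeq named in the submitters' processing notes. The annotation release and strand setting were not given in those sources. The method, a SMARTseq2 protocol, has no molecular identifiers, so precision from reads covers counting error only. Identifiers without a symbol (327 of 55471) held 0.0307% of reads.

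The filter of 1000 detected genes removed 84 cells. Counts were summed per mouse, or per mouse and class with at least 5 cells, and tested with edgeR 4.0.16 in R 4.3.3 (quasi-likelihood, TMM, filterByExpr, Benjamini-Hochberg over all genes, threshold 0.05), with mouse as block between classes. DESeq2 1.42.0, limma 3.58.1 and other settings were alternatives, and the scripts were tested on simulated data. The SE of an edgeR fit was taken as the absolute log2 fold change over the square root of its quasi-likelihood F statistic. CPM used library totals, log2 values a pseudocount of 1. The members, the lists and the rule for named genes were chosen with earlier results of these data known: all members, up to 3 called genes per list with the largest change (otherwise up to 2 with the lowest p), Eif2ak3, and the 5 genes most like Hspa5, Ern2, Atf4 and Ddit3, of which 1 is not reported here. Mice are taken as labelled.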

Additional observations from a re-analysis of the deposited data

Results flagged for a closer look

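Among 30 groups of 4 to 7 mice whose member values were tested for a sample far from the others by Dixon's criterion, which chance meets in about 1 of 20 groups, 2 were marked. Atf6 in ISC-led cells of aged mouse 3 had 28.9 CPM, below the other aged mice, at 41.9 to 42.9 CPM. The difference in Hspa5 between Paneth-led and ISC-led cells, in log2(TMM-scaled CPM + 1), was −0.22 in aged mouse 1, the lowest of the 7 mice and the others lay above 0.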

How the results depend on the processing

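Paneth-led against ISC-led cells: the calls of Ern2 (2.62 to 4.07) and Ern1 (1.10 to 2.38) held under all 17 settings. With library totals 2 members passed as higher and 2 as lower, and Atf4 (−0.36), Atf6 (−0.18), Xbp1 (−0.076), Hspa5 (−0.51), Hsp90b1 (−0.71) and Pdia4 (−1.13) changed sign. Pdia4 also did at 10 cells a sum (−0.00334), with totals without marker and defensin genes (−0.21), with no filter (−0.13) and, with mice left out in turn, ranged from −0.046 to 0.15.

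Paneth-led against enterocyte-led cells: 5 members passed with DESeq2, RLE factors, a class margin of 0.5, factors without marker genes and no replicate block, 6 with totals without marker and defensin genes, and 2 to 5 with mice left out. With library totals Atf4 (−0.13), Atf6 (−0.44), Ddit3 (−0.32), Dnajb9 (−0.00841), Hsp90b1 (−0.53), Hspa5 (−0.33), Pdia4 (−0.20) and Xbp1 (−0.15) changed sign. Hsp90b1 ranged from −0.011 to 0.30 with mice left out.

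Enterocyte-led against ISC-led cells: 0 members passed as higher with 10 cells a sum, library totals, totals without marker and defensin genes, and no filter, and 1 as lower under the last 3. With library totals and the reduced totals Atf4 (−0.23, −0.16), Ern1 (−0.14, −0.051), Ern2 (−0.62, −0.44), Hsp90b1 (−0.18, −0.11) and Hspa5 (−0.18, −0.11) changed sign, as did Ern1 with thinned cells (−0.17) and Ern2 with DESeq2 (−0.068), no filter (−0.14) and factors without marker genes (−0.00739). Ern2 passed as higher with thinned cells (0.72). With mice left out Ern1 ranged from −0.11 to 0.78, Ern2 from −0.53 to 0.49 and Eif2ak3 from −0.17 to 0.092. Eif2ak3 was at 0.12 with 10 cells a sum, 0.17 with a margin of 0.5 and 0.078 with no replicate block. In goblet-led cells 2 members passed with at least 2 cells a sum, where Pdia4 was at 0.20, and Dnajb9 was at −0.11 with library totals.

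Aged against young: 0 members passed under any setting. Same-numbered mice were not taken as pairs, and their deviations from the group means correlated at −0.016, 0.107 and −0.110. The other pairs of a young and an aged mouse ran from −0.100 to 0.205, the highest for young mouse 3 with aged mouse 4. Pairs that shared a lane had 0.143 (young mouse 1, aged mouse 3), 0.107 and 0.061 (young mouse 2 with aged mice 2 and 1). Such values cannot show what these mice had in common, and the part of the lane in them was not tested. With a replicate block 0 members passed, Ern2 was at 0.98, and Ern1 in ISC-led cells at −0.058. With a lane block Ddit3 was at −0.037 in all kept cells. With mice left out, values ran from −0.056 to 0.27 (Atf6, ISC-led −0.066 to 0.30), −0.055 to 0.34 (Hspa5, ISC-led −0.052 to 0.33), −0.41 to 0.089 (Eif2ak3) and −0.097 to 0.34 (Ern1, ISC-led). In the interaction Atf4 was at −0.00436 with 10 cells a sum and ran from −0.11 to 0.18 with mice left out, Pdia4 from −0.034 to 0.36, Xbp1 from −0.34 to 0.12 and Ern2 from −0.93 to −0.40 (−0.23 with a class margin of 0.5).

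Counts of genes called moved by over 1.5 times as follows. Paneth-led against ISC-led (1362 higher, 1030 lower): 2147 higher with DESeq2, 1804 lower with no filter and 487 lower without aged mouse 4. Paneth-led against enterocyte-led (1664, 2396): 2512 higher with DESeq2, 1095 with 10 cells a sum and 1082 without aged mouse 4. Enterocyte-led against ISC-led (2407, 1805): 1085 lower with 10 cells a sum and 929 without aged mouse 4. Goblet-led (186, 316): 95 lower with 2 cells a sum. Library totals are in the report. Aged against young, where 0 genes passed, higher and lower in all kept and then ISC-led cells: 11, 2, 23 and 7 with thinned cells, 9, 3, 17 and 11 with cells weighted equally, 14, 8, 9 and 5 with no filter, 1, 1, 2 and 2 with limma voom, 0, 1, 0 and 1 with a lane block, and up to 5 without 1 mouse. The causes were not tested. The small number of Paneth-led cells per mouse (7 to 37) and of aged and young mice limits what these fits can resolve.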
